A study of Mus musculus with 32 samples.

Results

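Target and feedback genes of the Wnt/β-catenin pathway were measured by RNA-seq in 32 primary mouse melanomas. The 10 genes were chosen as widely used pathway targets, many of which act back on the pathway, and all 10 were found by symbol among 50600 genes. They are Axin2, Nkd1, Notum and Apcdd1, which restrain the signal, Lef1, Tcf7 and Sp5, which act in the nucleus, and Rnf43, Znrf3 and Lgr5, which set how much receptor stays at the cell surface. Every tumour arose in a mouse that expresses mutant NRAS (Q61K) from the Tyr promoter, which is active in melanocytes, lacks 1 functional copy of Cdkn2a and carries loxP-flanked Cdh1 alleles (Cdh1F/F). Cdh1 encodes E-cadherin. Ecad mice (°/°) have no Cre. In ΔEcad mice a Tyr::CreA transgene removes Cdh1 from melanocytes, although the sample labels write Tyr::NRAS/° at that place of the ΔEcad genotype. The 4 groups were Ecad male, Ecad female, ΔEcad male and ΔEcad female, with 8 tumours each, on a C57BL/6J background and with no drug treatment in the labels. Ages were not given in the sources used here, and nothing in the labels says that each tumour came from a separate mouse, so p-values measure the spread between these tumours.

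In canonical Wnt signalling, Wnt ligands bind Frizzled and LRP receptors, β-catenin escapes the destruction complex, enters the nucleus and activates transcription with TCF/LEF factors. Several of the genes it activates encode inhibitors of the same pathway, and their transcripts are commonly read as a record of signalling in a tissue. In skin, the pathway is known for its part in hair follicle growth and in the specification and renewal of melanocytes. E-cadherin binds β-catenin at cell junctions. The question put to these genes was therefore whether they differed between Ecad and ΔEcad melanomas, between sexes, and among single tumours.

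Some features of the libraries bear on what follows. Total counts ran from 24036333 to 63923086 per tumour. In ΔEcad male 2, as labelled, Xist, the X-inactivation transcript, was at 6.41 TPM (transcripts scaled to a fixed library total), with a summed level of 0 TPM for Ddx3y, Eif2s3y, Kdm5d and Uty on the Y chromosome, whereas the 8 Ecad males had between 20.8 and 130 TPM of these Y-linked genes. In ΔEcad male 7 the pigment enzyme gene Dct was at 4.98 TPM, against at least 1466 TPM in every other tumour, and 10 melanocytic markers summed to 31.97 TPM. ΔEcad female 3 was low in macrophage markers, with a mean log2 CPM (counts scaled to library size) of -2.65 against at least 3.37 in every other tumour. Its endothelial markers had a mean of -1.40, against at least 3.53 elsewhere. Cdh1 RNA was 145.8 ± 87.5 TPM in Ecad and 13.1 ± 21.7 TPM in ΔEcad males (SD, n = 8 each; log2 difference -3.33, SE 0.96, edgeR adjusted p = 0.365). In females it was 50.5 ± 52.9 TPM with Ecad and 55.2 ± 54.1 TPM with ΔEcad (log2 difference -0.00, SE 0.87, edgeR adjusted p = 0.999), in whole tumours that also hold cells outside the reach of the Cre. In bulk tumours, fewer cells of a type and less RNA per cell cannot be told apart.

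TCF/LEF factors are known to bind a short DNA motif, and promoter sequences are shown for Axin2 and Nkd1, which varied together across tumours, and for Sp5, whose window held the most matches to that motif. Each run is the 250 bases before a RefSeq start site in build GRCm38.p6, read 5′ to 3′ on the strand of the gene, with matches in capitals to the string CTTTGAA, to its variant CTTTGAT, to the variant CTTTGTA or to the variant CTTTGTT, on either strand. The start sites are RefSeq's, and that of Nkd1 lies inside the longer gene model used for counting.
Axin2 (chr11:108920099-108920348, + strand): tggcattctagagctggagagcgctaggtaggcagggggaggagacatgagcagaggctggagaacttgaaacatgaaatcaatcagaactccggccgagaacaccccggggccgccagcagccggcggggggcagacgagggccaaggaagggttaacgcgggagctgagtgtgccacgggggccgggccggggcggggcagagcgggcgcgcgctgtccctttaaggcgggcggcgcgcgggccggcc
Nkd1 (chr8:88527383-88527632, + strand): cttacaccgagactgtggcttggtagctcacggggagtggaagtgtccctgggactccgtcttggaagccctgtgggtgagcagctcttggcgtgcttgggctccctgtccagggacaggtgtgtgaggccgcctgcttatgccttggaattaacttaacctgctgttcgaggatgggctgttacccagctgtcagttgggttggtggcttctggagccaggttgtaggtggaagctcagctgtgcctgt
Sp5 (chr2:70474673-70474922, + strand): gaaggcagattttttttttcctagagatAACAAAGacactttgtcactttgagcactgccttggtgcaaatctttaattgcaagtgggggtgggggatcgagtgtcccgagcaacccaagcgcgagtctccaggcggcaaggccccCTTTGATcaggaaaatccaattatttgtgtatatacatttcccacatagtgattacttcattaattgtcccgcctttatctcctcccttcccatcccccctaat
The Sp5 window held 2 matches, CTTTGAT at position -104 relative to the start and CTTTGTT on the opposite strand, which reads AACAAAG here, at position -222. No match fell in the windows of Axin2, Nkd1, Tcf7 or Rnf43, and 1 of the 4 Lef1 windows held a single CTTTGTA. Over windows of 300 bases, from 250 before to 50 after a start, 16.9% of 32851 windows and 18.9% of 27025 genes held at least 1 of the 4 strings, so that such a match is common. Notum, Znrf3 and Lgr5 had no window in the table used.

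The 10 genes covered a wide range of levels, compared here per transcript length as TPM over all 32 tumours. Tcf7 had the highest median (38.5 TPM), followed by Axin2 (18), Apcdd1 (7.96), Nkd1 (7.14), Znrf3 (3.72), Lef1 (2.13), Sp5 (0.615), Notum and Rnf43 (0.36 each) and Lgr5 (0.235). The ranges of neighbours in this order overlapped throughout. Spread differed as much as level. The standard deviation of log2 CPM (counts scaled to library size) over the 32 tumours was 0.86 for Znrf3, larger than that of 49.8% of the 17717 genes tested, 1.13 for Axin2 (62.7%) and 1.30 for Tcf7 (69.4%). The other 7 genes lay between 1.99 for Apcdd1 (87.8%) and 2.91 for Lef1 (96.4%). Low counts limit some of them: Sp5 had 3 counts or fewer, the limit that a count of 0 allows, in 11 tumours, Rnf43 in 8, Notum in 6, Lgr5 in 3 and Lef1 in 2.

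**Figure D1:**
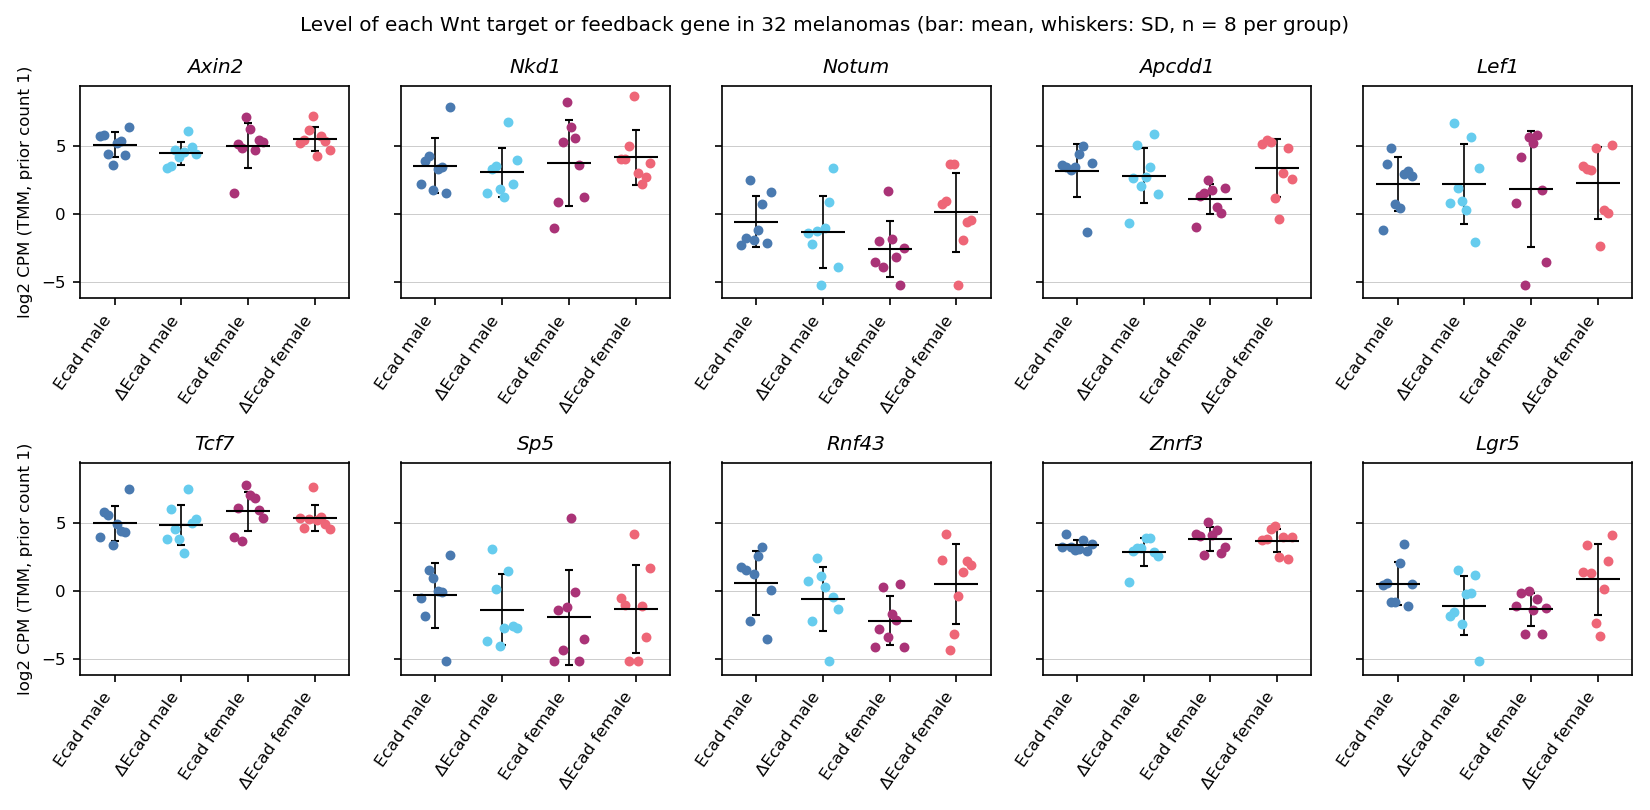
Level of each of the 10 genes (log2 CPM, vertical axis) in the 4 groups of 8 tumours, 1 point per tumour, with the mean as a bar and the SD as whiskers. Every gene's groups overlap, and Nkd1, Notum, Apcdd1, Lef1, Sp5, Rnf43 and Lgr5 spread over more than 7 log2 units.

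Among the antagonists, Axin2, a scaffold of the β-catenin destruction complex (ENSMUSG00000000142, chromosome 11, 108920349 to 108950783), ran from 5.82 through a median of 22.6 to 38.2 TPM in Ecad males. In Ecad females it ran from 1.76 through 19.4 to 86.8 TPM. The ΔEcad males had 2.65, 12.7 and 29.2 TPM and the ΔEcad females 8.77, 23.2 and 68.2 TPM, as lowest, median and highest. Single tumours set the top of each range, Ecad female 4 and ΔEcad female 4 in the females, and Ecad female 1 lay far below the others.
Nkd1, which binds Dishevelled and damps the signal (ENSMUSG00000031661, chromosome 8, 88521354 to 88594884), had medians of 7.39 TPM (Ecad) and 3.93 TPM (ΔEcad) for males and of 13.6 and 11.3 TPM for females. One tumour in each group stood high: Ecad male 8 at 128.5 TPM, Ecad female 4 at 217.8, ΔEcad male 6 at 58.0 and ΔEcad female 4 at 231.5. The mean of the other 7 was 6.61, 16.1, 3.91 and 9.83 TPM in the order of these tumours, so that 1 tumour carried most of the mean Nkd1 RNA in all 4 groups.
Notum encodes a secreted enzyme that removes the lipid from Wnt ligands (ENSMUSG00000042988, chromosome 11, 120653788 to 120661175). Its medians were 0.475 TPM (Ecad) and 0.34 TPM (ΔEcad) for males and 0.12 and 1.7 TPM for females. The highest values were 18.1 TPM in ΔEcad female 3, 14.1 in the library labelled ΔEcad male 7 and 13.4 in ΔEcad female 4, while 26 of 32 tumours were above the limit of 3 counts.
Apcdd1, a membrane inhibitor of Wnt signalling known from hair follicle biology (ENSMUSG00000071847, chromosome 18, 62922231 to 62961179), ran from 0.38 through 12.6 to 36.8 TPM in Ecad males. Ecad females had 0.6, 2.77 and 6.67 TPM as lowest, median and highest. The ΔEcad males had 0.3, 6.48 and 69.4 TPM and the ΔEcad females 0.69, 16.5 and 48.5 TPM. Ecad females thus had the narrowest range and the lowest median, and the peak of the ΔEcad males was the library labelled ΔEcad male 7.

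Of the nuclear factors, Tcf7 (ENSMUSG00000000782, chromosome 11, 52252371 to 52283014), a TCF family factor that is also known from T cells, had medians of 31.2 TPM (Ecad) and 27.9 TPM (ΔEcad) for males and of 76.1 and 40.3 TPM for females. Its highest values were 271.0 TPM in Ecad female 4, 188.9 in ΔEcad female 4, 165.8 in Ecad male 8 and 158.7 in ΔEcad male 6. These were the tumours that were highest in Nkd1 in their groups.
Lef1, the related factor that also marks hair precursor cells (ENSMUSG00000027985, chromosome 3, 131110471 to 131224356), had medians of 2.39 TPM (Ecad) and 1.01 TPM (ΔEcad) for males and of 4.15 and 3.61 TPM for females. Within Ecad females it went from a count of 0 in Ecad female 3 to 19.2 TPM in Ecad female 4, and the highest value, 25.1 TPM, was in the library labelled ΔEcad male 2.
Sp5, a zinc finger factor and direct target (ENSMUSG00000075304, chromosome 2, 70474923 to 70477729), was below 10 TPM in 30 of 32 tumours. The exceptions were Ecad female 5 at 57.7 TPM and ΔEcad female 4 at 21.1 TPM. The mean of the Ecad females was 7.50 TPM with Ecad female 5 and 0.334 TPM without it.

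The receptor-level genes were low apart from Znrf3. Rnf43 and Znrf3 encode membrane ubiquitin ligases that remove Frizzled from the surface, and Lgr5 encodes an R-spondin receptor that marks stem cells of the hair follicle and gut. Rnf43 (ENSMUSG00000034177, chromosome 11, 87662722 to 87735539) had medians of 1.22 TPM (Ecad) and 0.345 TPM (ΔEcad) for males and of 0.065 and 1.41 TPM for females, with a peak of 8.34 in ΔEcad female 2. Lgr5 (ENSMUSG00000020140, chromosome 10, 115450311 to 115587780) had medians of 0.36 and 0.13 TPM for males and of 0.12 and 0.8 TPM for females in the same order, with a peak of 6.3 in ΔEcad female 8. Ecad females did not exceed 0.56 TPM for Rnf43 or 0.31 TPM for Lgr5.
Znrf3 (ENSMUSG00000041961, chromosome 11, 5276324 to 5444847) was the steadiest of the 10, with medians of 3.41 and 3.13 TPM for males and of 6.57 and 5.39 TPM for females, and a highest value of 14.3 TPM in Ecad female 4. Axin2, Nkd1, Notum, Lef1, Tcf7, Rnf43 and Lgr5 overlap another annotated gene, on the same or the opposite strand, and the sources used here do not say whether counting used the strand, so part of their counts may belong to the neighbour.

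Loss of Cdh1 in females was compared first, since the study centred on ΔEcad female melanomas. From chromatin profiling of cell lines, the paper describes more active promoters of Axin2, Nkd1, Notum, Apcdd1 and Sp5, mainly in ΔEcad females. It also reports matching expression of these genes, and the text used here does not name the samples behind that. In cells, the paper further describes higher Nkd1 or Axin2 after Cdh1 inhibition with added β-catenin or after Apc reduction. Nkd1 fell there after β-catenin inhibition. Whole tumours also hold other cells, and their comparison does not repeat those experiments. None of the 10 genes was called at an adjusted p under 0.05 and a log2 fold change over 1 in size (edgeR, 8 against 8 tumours), where 1.20% of all genes tested were called. Apcdd1, Rnf43, Lgr5 and Notum had the largest differences. Apcdd1 was 22.7 ± 20.6 TPM in ΔEcad and 2.77 ± 1.96 in Ecad females (SD, n = 8 each), a log2 difference of 2.96 (SE 0.81, adjusted p = 0.0541). Lgr5 had a log2 difference of 3.33 (SE 0.96, adjusted p = 0.0624) and Rnf43 of 3.37 (SE 1.11, adjusted p = 0.0967). For Notum it was 2.93 (SE 1.29, adjusted p = 0.251). In each of these genes at least 6 of the 8 ΔEcad females were above the Ecad female median, and the ranges overlapped.
The core readouts did not share that pattern. Axin2 had a log2 difference of 0.17 (SE 0.50, adjusted p = 0.925) and Nkd1 of 0.08 (SE 1.14, adjusted p = 0.987), and 5 and 2 of the 8 ΔEcad females were above the respective Ecad median. Tcf7 was at -0.61 (SE 0.65), Lef1 at -0.78 (SE 1.17), Sp5 at -0.90 (SE 1.50) and Znrf3 at -0.14 (SE 0.38), with adjusted p between 0.743 and 0.919. The sign of Sp5 was not stable. It was at 3.49 without Ecad female 5 (edgeR adjusted p = 0.210) and at 1.21 with DESeq2 (adjusted p = 0.660). Of the 8 ΔEcad females, 5 were above the Ecad female median of Sp5. Nkd1 was at -2.13 without ΔEcad female 4 (edgeR adjusted p = 0.351). The standard errors ran from 0.38 for Znrf3 to 1.50 for Sp5, and those of Nkd1, Lef1 and Sp5 exceeded 1 log2 unit. A doubling in either direction would not have been detectable for any of these genes, Axin2 included. Even Apcdd1, at an unadjusted edgeR p of 0.00101, was not called. The median difference was 0.13 over the 10 genes and -0.02 over all genes tested.
The call for 3 of the genes rested on the method. With DESeq2, the tool named in the study's methods, Apcdd1 (adjusted p = 0.00218), Lgr5 (adjusted p = 0.00267) and Rnf43 (adjusted p = 0.00857) were called, in a fit that called 6.52% of the genes it tested. Limma with voom weights gave adjusted p of 0.195, 0.255 and 0.174 for Apcdd1, Lgr5 and Rnf43. In edgeR, Apcdd1 was called when Ecad male 7, Ecad female 5, ΔEcad male 7 or ΔEcad female 4, 5 or 8 was left out, with adjusted p of 0.0404 without ΔEcad male 7, and Lgr5 when ΔEcad female 4 or 5 was. The number of genes called in females was itself between 1 (for example without Ecad female 1) and 695 (without ΔEcad female 4) when 1 tumour was left out.

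Markers of skin, and of other tissue, moved with the same contrast. The summed level of all 10 keratinocyte markers was 8.13 TPM at the median of Ecad females (5.21 to 1993) and 6825 TPM in ΔEcad females (9.56 to 35390). The 11 hair follicle markers that could be matched summed to 0.84 TPM (0.03 to 4.04) and 107 TPM (0.23 to 4477), with Krt72 at 0 in every Ecad female. The 8 fibroblast markers summed to 349.9 TPM (105 to 4228) and 1367 TPM (371.0 to 9341). The 10 melanocytic markers went the other way, at 31010 TPM (20860 to 76210) and 20410 TPM (5896 to 46260). Median sums in Ecad and ΔEcad females were 9.72 and 829 TPM for skeletal muscle and 2.99 and 11.5 TPM for T cell markers. They were 593 and 1277 TPM for macrophage and 292 and 405 TPM for endothelial markers, and all these ranges overlapped. By mean log2 CPM, macrophage markers were at 5.16 and 4.93.
With the keratinocyte and melanocytic scores as covariates, the female genotype difference was 1.75 log2 units for Apcdd1 (adjusted p = 0.537), 0.66 for Lgr5 (adjusted p = 0.907) and -0.09 for Rnf43 (adjusted p = 0.993). Each score is the mean log2 CPM of its markers. Notum stayed at 3.57 (adjusted p = 0.343). The melanocytic score was -0.10 in the library labelled ΔEcad male 7 and at least 6.56 in every other tumour. The covariate fits were not repeated without that library.

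**Figure D2:**
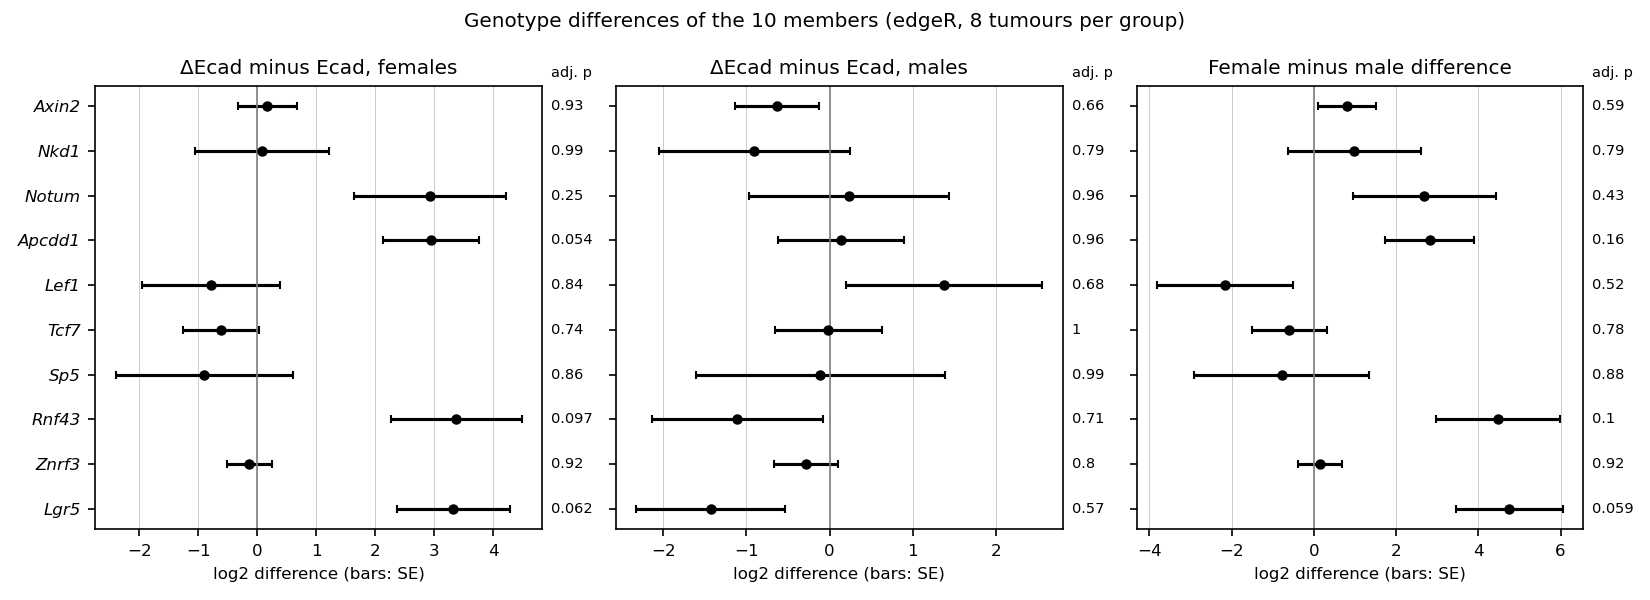
Fitted log2 difference of each of the 10 genes (points, horizontal axis; bars are the SE) for ΔEcad against Ecad in females, in males, and for the difference between these differences, with the adjusted p over all genes at the right of each panel. Notum, Apcdd1, Rnf43 and Lgr5 lie near 3 in females, and no adjusted p is under 0.05.

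In males none of the 10 was called, nor was any gene of the 17717 (0% of all genes tested by edgeR, although 1814 had an unadjusted p under 0.05 and DESeq2 called 44 at an adjusted p under 0.05). The differences ran from -1.43 for Lgr5 (SE 0.89, adjusted p = 0.571) to 1.38 for Lef1 (SE 1.18, adjusted p = 0.684), and Apcdd1 was at 0.14 (SE 0.76, adjusted p = 0.961). For both Lef1 and Apcdd1, 6 of the 8 ΔEcad males were below the Ecad male median. Without the library labelled ΔEcad male 2, the ΔEcad male mean of Lef1 was 2.72 TPM, against 2.96 in Ecad males. Without that labelled ΔEcad male 7, the mean of Apcdd1 was 9.21 TPM, against 15.3 in Ecad males. Between the sexes, none was called in Ecad tumours (0.0508% of all genes called) or in ΔEcad tumours (0.0395%). Female Ecad tumours were at -2.40 log2 units against males for Apcdd1 (SE 0.80, adjusted p = 0.136), -2.43 for Lgr5 (SE 0.93, adjusted p = 0.184) and -2.91 for Rnf43 (SE 1.09, adjusted p = 0.177). In ΔEcad tumours 9 of the 10 genes had a positive female minus male difference, with a median of 0.96 against -0.06 over all genes. The share of positive differences over all genes was not computed. The library labelled ΔEcad male 2, with Xist RNA and no Y-linked RNA, counted as male here. It had the highest level of Lef1, the gene with the negative difference (-0.87, SE 1.17, adjusted p = 0.867). Without that library none of the 10 was called either, beside 0.0446% of all genes. Lgr5 was at 2.33 (SE 0.92, adjusted p = 0.520) and Axin2 at 1.08 (SE 0.51, adjusted p = 0.557). In Ecad tumours DESeq2 called Apcdd1 (adjusted p = 0.0271) and Rnf43 (adjusted p = 0.0418), with 5.00% of its tested genes called. The comparison of the female and male genotype differences, an interaction test, called none of the 10 and 0% of all genes, with 3131 genes at an unadjusted p under 0.05. Lgr5 came nearest with 4.75 log2 units (SE 1.31, adjusted p = 0.0594), then Rnf43 with 4.48 (SE 1.50, adjusted p = 0.1003) and Apcdd1 with 2.82 (SE 1.09, adjusted p = 0.160). In DESeq2 the interaction was called for Lgr5 (adjusted p = 0.00338) and Rnf43 (adjusted p = 0.0183), beside 6.26% of all genes. In edgeR, Lgr5 was called there when any of 7 tumours was left out (Ecad male 3 or 7, Ecad female 5, ΔEcad male 3, ΔEcad female 3, 4 or 5), and Rnf43 without ΔEcad male 3. Over all genes, leaving out 1 tumour moved the interaction from 0 calls to as many as 848 (without ΔEcad male 3). With the keratinocyte and melanocytic scores as covariates, the Lgr5 interaction was 1.91 (adjusted p = 0.706) and its sex difference in Ecad tumours -0.11 (adjusted p = 1). These contrasts share tumours and are not separate evidence. The Ecad females, low in all 3 genes, enter 3 of them. Keratinocyte markers had median sums of 4434 TPM in Ecad males and 524 TPM in ΔEcad males, beside the female values above, and their part in these differences was not tested beyond the covariate fits.

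Across single tumours the 10 genes formed patterns that groups did not show. Over all 45 pairs, 36 correlations of log2 CPM were positive and 10 were above 0.5 (n = 32 tumours). The same shares over pairs of other genes were not computed, so these counts are not read as particular to the set. The p-values below ask only whether a correlation differs from 0. Permutation p-values (100000 resamples, two-sided) are given unadjusted for the pairs named, and 1e-05 is the smallest they can give. Axin2 and Nkd1 had r = 0.74 (p = 1e-05) and rho = 0.61 (p = 0.00034). Nkd1 and Tcf7 had r = 0.75 (p = 1e-05) and rho = 0.61 (p = 0.00016), and Axin2 and Tcf7 r = 0.63 (p = 8e-05) and rho = 0.60 (p = 0.00034). With the 2 tumours left out that lay farthest from the first gene's median, r was at least 0.60 in all 3 pairs, and it was at least 0.65 for deviations from the group means. Ecad female 4, ΔEcad female 4, Ecad male 8, Ecad female 5 and ΔEcad male 6, of all 4 groups, held the 5 highest values of both Nkd1 and Tcf7, and all 5 were among the 8 highest for Axin2.
Apcdd1 and Lgr5 formed another pair, with r = 0.69 (p = 1e-05), rho = 0.78 (p = 1e-05) and r = 0.74 without the 2 farthest tumours. Rnf43 had r = 0.45 with Apcdd1 (p = 0.0098) and 0.44 with Lgr5 (p = 0.011). As deviations from a fit on the keratinocyte score these were 0.07 and 0.05, while Apcdd1 and Lgr5 stayed at 0.57. Notum correlated with Apcdd1 (r = 0.59, p = 0.00046), with Lgr5 (r = 0.53, p = 0.0014) and with Axin2 (r = 0.50, p = 0.0032), so that the pairs above 0.5 do not fall into separate sets. Axin2 and Apcdd1 had r = 0.38 (p = 0.03), and 0.47 as deviations from the keratinocyte fit. Lower values were 0.22 for Axin2 and Lgr5 (rho = 0.36), -0.02 for Apcdd1 and Tcf7 and -0.46 for Tcf7 and Rnf43 (rho = -0.43, p = 0.0077 for r and 0.015 for rho). Lef1 and Sp5 correlated with each other (r = 0.57, p = 0.0007) and Lef1 with Tcf7 (r = 0.58, p = 0.00065), while Lef1 with Axin2 was at 0.23 (p = 0.21). Many genes outside the set correlated as highly. By r among all tested genes, Tcf7 had rank 5 for Nkd1 and rank 16 for Axin2. Lgr5 had rank 217 for Apcdd1, Apcdd1 rank 168 for Notum, Tcf7 rank 166 for Lef1 and Rnf43 rank 2004 for Apcdd1.

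**Figure D3:**
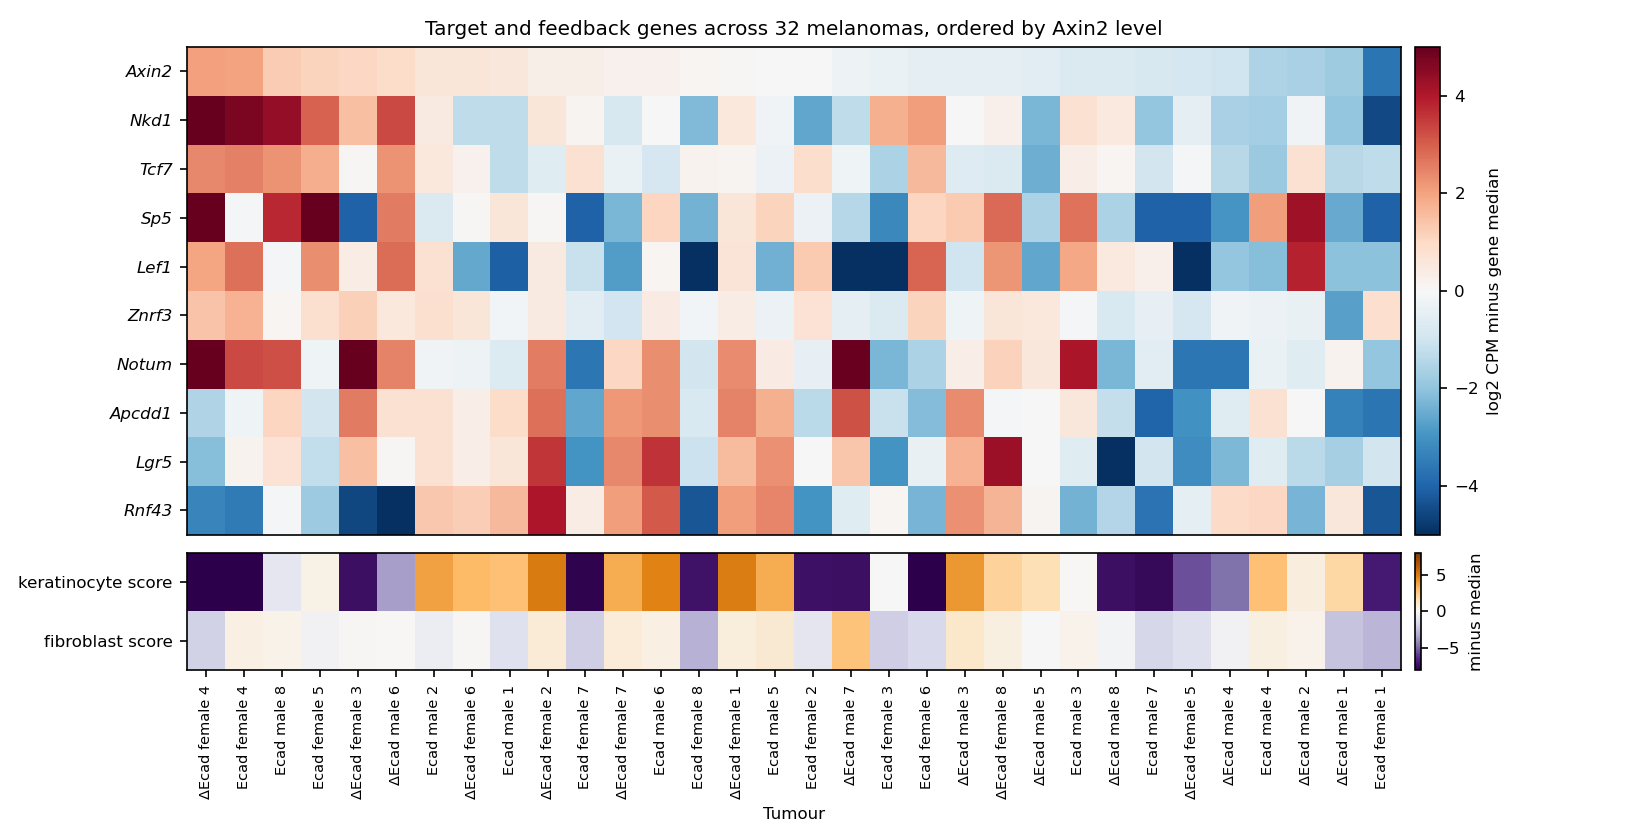
Log2 CPM of the 10 genes (rows) minus each gene's median, in the 32 tumours (columns) ordered by Axin2 level, with the keratinocyte and fibroblast scores minus their medians below; colours stop at ±5 for genes and ±8 for scores. Nkd1 and Tcf7 are high in the tumours at the left, where Axin2 is highest, and Rnf43 is high where the keratinocyte score is.

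**Figure D4:**
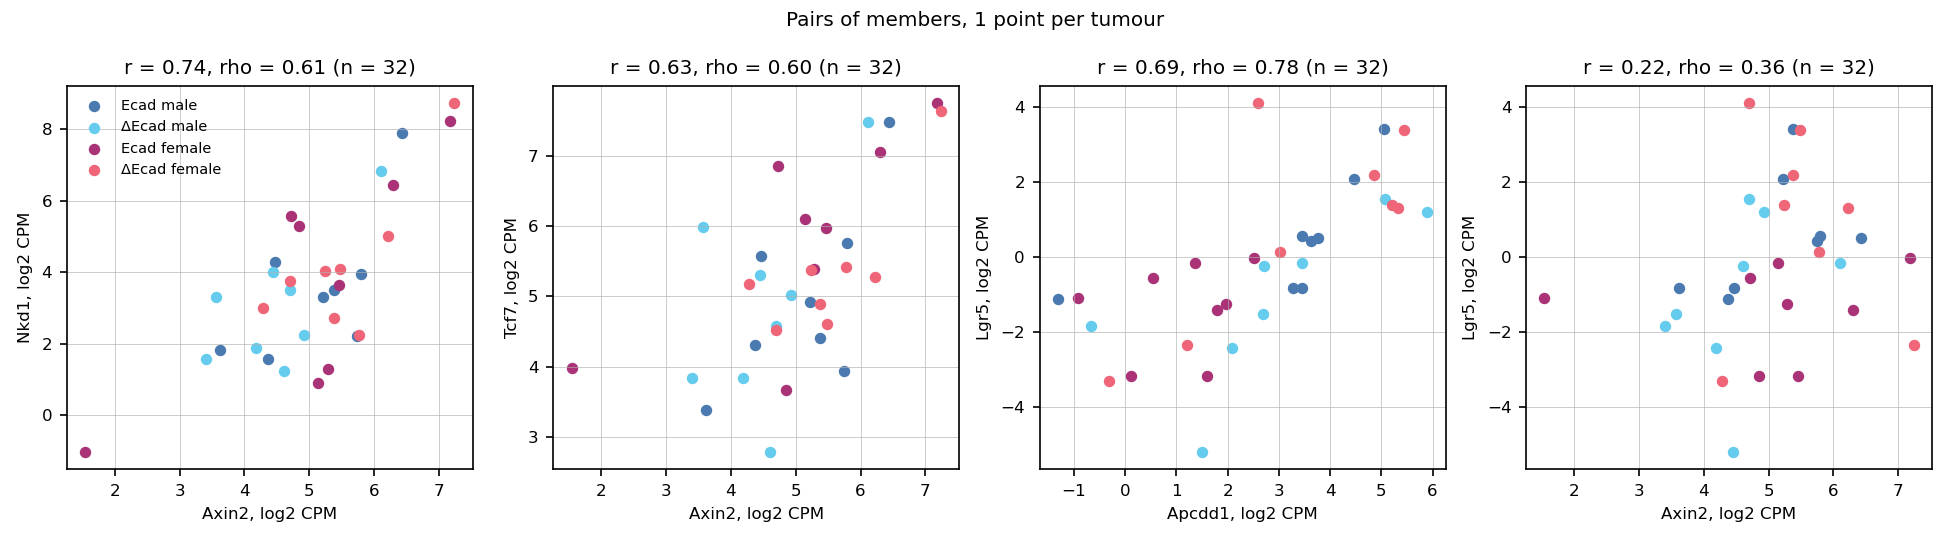
Log2 CPM of 4 pairs of genes, 1 point per tumour and coloured by group (n = 32), with Pearson r and Spearman rho over each panel. Axin2 with Nkd1 (r = 0.74) and with Tcf7 (r = 0.63), and Apcdd1 with Lgr5 (r = 0.69), rise together, while Axin2 and Lgr5 have r = 0.22.

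A fit across all genes asked which genes moved with the Axin2 level within groups. Of the 9 other genes of the set, 2 rose with it and none fell, where 0.198% of all genes rose and 0.203% fell. Nkd1 rose by 1.65 log2 units per log2 unit of Axin2 (SE 0.22, adjusted p = 0.000482) and had the smallest p of all 17716 genes. Tcf7 rose by 0.77 (SE 0.14, adjusted p = 0.0162). The remaining 7 had slopes between 0.12 for Rnf43 and 1.12 for Notum (adjusted p = 0.190 for Notum), all above 0, where the median over all genes was -0.01. Without the library labelled ΔEcad male 2, the Lef1 slope went from 0.28 to 0.72 (adjusted p = 0.551). That of Sp5 went from 1.09 to 1.58 (adjusted p = 0.176). Those of Notum and Apcdd1 were slightly smaller there. That of Lgr5 went from 0.16 to 0.12 and that of Rnf43 from 0.12 to 0.014 (adjusted p = 0.995). With the keratinocyte score added, Nkd1 (1.61, adjusted p = 0.0041) and Tcf7 (0.74, adjusted p = 0.0269) were still called. Without Ecad female 1 and ΔEcad female 4, which had the most extreme Axin2 levels, Nkd1 had a slope of 1.47 (adjusted p = 0.0830) and Tcf7 of 0.79 (adjusted p = 0.270), and no gene was called by edgeR, with 1659 at an unadjusted p under 0.05. Leaving out 1 tumour at a time, Nkd1 was called in all 32 fits, and Tcf7 lost its call without Ecad female 4 (slope 0.77, adjusted p = 0.0657), ΔEcad male 6 (0.70, adjusted p = 0.0701) or ΔEcad female 4 (0.71, adjusted p = 0.0579), with slopes close to the full 0.77.
Nkd1 was also the gene most like Axin2 by Pearson r among all tested. Outside the 10, the most alike were Sv2c (r = 0.73), Lnx2 (r = 0.73) and Plekhg2 (r = 0.69). For Lef1 these were Gm43352 (r = 0.91), which overlaps Lef1 on the opposite strand, Prkd1 (r = 0.84) and Rflna (r = 0.78). All points share their libraries, and these values describe 32 tumours.

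The same kind of fit related each gene to the cell content of the tumours. On the keratinocyte score, Rnf43 rose by 0.35 log2 units per unit (SE 0.08, adjusted p = 0.00488) and none of the 10 fell, where 6.96% of all genes rose and 3.22% fell. Notum was at -0.27 (SE 0.09, adjusted p = 0.0512) and Nkd1 at -0.23 (adjusted p = 0.107). The score itself split the tumours into 14 between -3.99 and 0.93 and 18 between 3.56 and 9.51, and 6 of the 8 Ecad females were among the 14. Within the 18, Rnf43 and the score had r = 0.85 (permutation p = 2e-05), rho = 0.89 (permutation p = 1e-05) and r = 0.93 without the 2 farthest tumours. Within the 14, where Rnf43 did not exceed 1.11 TPM, r was 0.04 (permutation p = 0.90) and rho -0.06. Apcdd1 (r = 0.62, permutation p = 0.0046, rho = 0.74) and Lgr5 (r = 0.66, permutation p = 0.0032, rho = 0.68) had positive correlations with the score within the 18, against r of 0.14 and -0.08 within the 14, and the difference between the clusters was not tested. Over all tumours and within groups, their slopes on this score were 0.05 for Apcdd1 (adjusted p = 0.656) and 0.15 for Lgr5 (adjusted p = 0.273). Of these 20 unadjusted relations, Axin2 had r of -0.17 and 0.08.
The hair follicle score gave 1 rising gene, again Rnf43 (0.41, SE 0.10, adjusted p = 0.0070), where 6.47% of all genes rose and 2.71% fell. Its slope was 0.07 (adjusted p = 0.924) with all 5 scores in 1 model, while the keratinocyte slope stayed at 0.33 (adjusted p = 0.0154).
On the fibroblast score 2 of the 10 rose and none fell, beside 3.89% and 2.34% of all genes. Apcdd1 rose by 1.06 log2 units per unit (SE 0.21, adjusted p = 0.0029) and was still called without the library labelled ΔEcad male 7 (1.03, adjusted p = 0.0237) and with all 5 scores in 1 model (1.08, adjusted p = 0.00541). Lgr5 rose by 0.96 (SE 0.28, adjusted p = 0.0366), a call lost without that library, where the slope was 1.02 (adjusted p = 0.0638), and in the joint model (0.72, adjusted p = 0.136). All 10 slopes on this score were above 0, with a median of 0.42 against -0.02 over all genes.

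None of the 10 was called on the melanocytic score, where 2.18% of all genes rose and 1.57% fell, and adjusted p ran from 0.184 for Apcdd1 to 0.795 for Znrf3. Without the library labelled ΔEcad male 7, 3 of the 10 were called, beside 3.22% of all genes. Nkd1 then rose by 1.27 log2 units per unit (SE 0.34, adjusted p = 0.0354), Tcf7 rose by 0.90 (SE 0.18, adjusted p = 0.0114) and Rnf43 fell by 1.39 (SE 0.39, adjusted p = 0.0442).
On the T cell score none rose and 2 fell, beside 5.47% and 2.34% of all genes. Nkd1 fell by 0.77 log2 units per unit (SE 0.18, adjusted p = 0.0051) and Tcf7 fell by 0.36 (SE 0.11, adjusted p = 0.0371). The 8 T cell markers had a median sum of 10.3 TPM. Both calls were lost without ΔEcad female 3 and ΔEcad female 4, where the slopes were -0.67 for Nkd1 (adjusted p = 0.103) and -0.34 for Tcf7 (adjusted p = 0.222). With limma they were -0.54 (adjusted p = 0.129) and -0.21 (adjusted p = 0.293).
On the level of Cdh1 RNA, Rnf43 rose (0.70, SE 0.18, adjusted p = 0.00975), while Tcf7 (-0.39, SE 0.11, adjusted p = 0.0160), Nkd1 (-0.59, SE 0.19, adjusted p = 0.0398) and Notum (-0.56, SE 0.19, adjusted p = 0.0491) fell, beside 7.52% of all genes rising and 4.92% falling. Cdh1 itself rose with the keratinocyte score (0.33, SE 0.06, adjusted p = 0.000123). With that score in the model none of the 4 genes was called (adjusted p from 0.299 to 0.858), beside 0.203% of all genes. The slope of Rnf43 was then 0.27 and that of Notum -0.27, while Nkd1 was at -0.60 and Tcf7 at -0.46, no smaller in size than before.

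**Figure D5:**
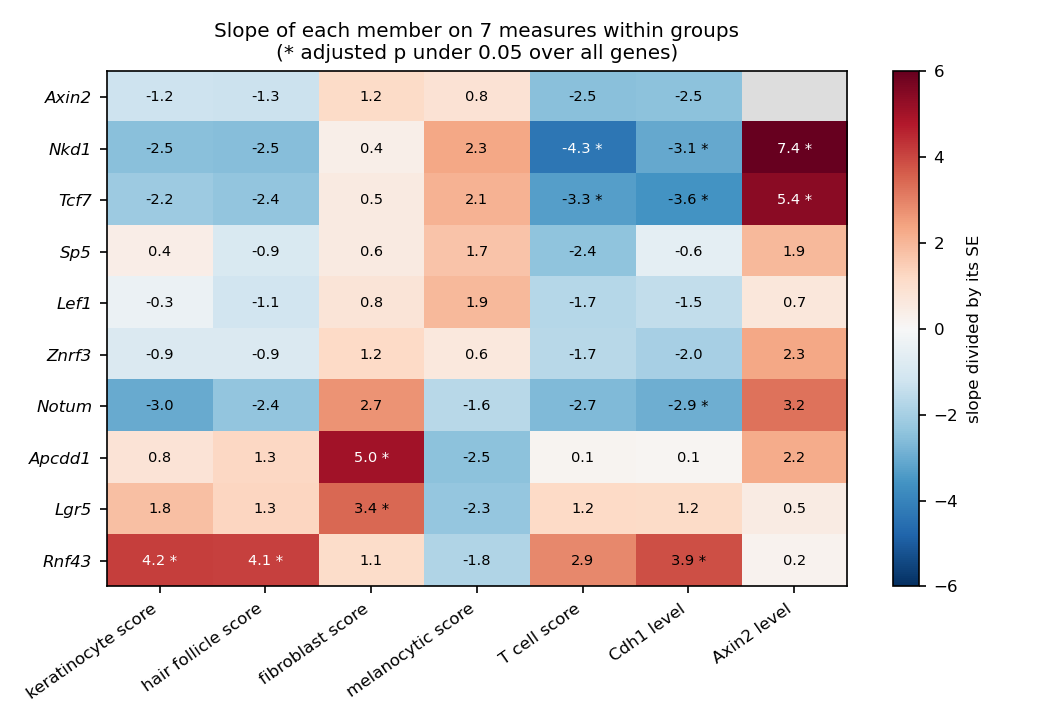
Slope of each of the 10 genes (rows) on 5 tissue scores and on the Cdh1 and Axin2 levels (columns) within groups, divided by its SE, with a star where the adjusted p over all genes is under 0.05. Nkd1 and Tcf7 share signs in all 7 columns, and Rnf43 is opposite to them except for the fibroblast score and the Axin2 level.

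The wider pathway was read from 72 further genes, of which 67 passed the filter on low counts. In the female genotype comparison 2 of 67 were called, both higher in ΔEcad, beside 1.20% of all genes. They were the secreted Wnt inhibitor gene Sfrp1 (log2 difference 4.26, SE 0.94, adjusted p = 0.0394) and the Eph receptor gene Ephb3 (2.30, SE 0.57, adjusted p = 0.0447). Sfrp1 had a median of 24.1 TPM in ΔEcad and 2.00 in Ecad females. The Frizzled receptor gene Fzd10 followed (6.11, SE 1.61, adjusted p = 0.0505). In the other direction Pygo1 (-0.98, adjusted p = 0.107), Axin1 (-0.57, adjusted p = 0.194) and Dkk3 (-0.95, adjusted p = 0.372) had the smallest p. No gene of the list was called in males, between the sexes or in the interaction.
Only Dact1, a Dishevelled-binding modulator, rose with the Axin2 level (0.73, SE 0.17, adjusted p = 0.0458) and none of the 67 fell. Of all genes 0.198% rose and 0.203% fell. Tle3 (0.22, adjusted p = 0.119) and Tnfrsf19 (0.74, adjusted p = 0.162) came next. Like Nkd1 and Tcf7, Dact1 fell with the T cell score (-0.48, adjusted p = 0.00753) and with Cdh1 (-0.43, adjusted p = 0.00147).
On the keratinocyte score 7 of 67 rose and 1 fell, beside 6.96% of all genes rising and 3.22% falling. The steepest were Sostdc1, a secreted BMP and Wnt antagonist of hair follicles (0.85, SE 0.08, adjusted p = 5.7e-10), Fzd10 (0.72, SE 0.07, adjusted p = 4.65e-09) and the Dickkopf receptor gene Kremen2 (0.44, SE 0.08, adjusted p = 7.72e-05). Porcn, Fzd4, Ascl2 and Sfrp5 also rose, and Ccnd1, which encodes cyclin D1, fell (-0.13, SE 0.04, adjusted p = 0.0230). The same 7 genes rose on the hair follicle score, where Tnks fell (-0.12, adjusted p = 0.0470), beside 6.47% of all genes rising and 2.71% falling.
On the fibroblast score 6 rose, namely the R-spondin gene Rspo4 (1.59, SE 0.26, adjusted p = 0.000419), Twist1, Fzd2, Dkk2, Sfrp2 and Fzd6, and Fzd3 fell (-0.61, adjusted p = 0.0369). Of all genes 3.89% rose and 2.34% fell on that score. On the melanocytic score Tnfrsf19 rose (0.77, adjusted p = 0.0101) and Fzd5 and Dkk2 fell, beside 2.18% of all genes rising and 1.57% falling. Tnfrsf19, Cby1 and Dact1 fell with the T cell score and none rose, beside 2.34% of all genes falling and 5.47% rising. With Cdh1, 6 rose (Sostdc1, Fzd10, Kremen2, Porcn, Ctnnbip1 and Ascl2) and 3 fell (Dact1, Fzd1 and Rspo3), beside 7.52% and 4.92% of all genes. The counts of the 67 were not tested against the shares over all genes and are not read as particular to the pathway.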

How the data were processed

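The authors sequenced stranded mRNA libraries of 32 tumours, aligned them with STAR to GRCm38 and deposited raw counts and TPM per gene. The deposited TPM values are the counts rescaled, to within 0.0762% over 996 genes. It is unclear whether the study's batch correction was applied here. Counts were tested with edgeR 4.0.16 (TMM, robust quasi-likelihood, low-count filter, 17717 genes, Benjamini-Hochberg adjustment). Contrasts were called at adjusted p under 0.05 and absolute log2 fold change over 1, slopes at adjusted p under 0.05. Log2 CPM used a prior count of 1. Alternatives were DESeq2 1.42.0, limma 3.58.1 (voom, or log2(TPM + 0.1)), other scaling, filters, covariates and left-out tumours (slope fits without ΔEcad male 2 or 7, or without each tumour on the Axin2 level, were chosen after seeing the data). The tests were checked on simulated data in which genes varied independently, so the check does not cover variation shared between genes. Named genes were the 10 genes, Cdh1, pathway-list genes called or leading by p, up to 3 each way, in 3 fits, and the 3 genes most like Axin2 and Lef1. The genes and lists were chosen with earlier results of these data known. Tumour numbers are shared between groups, but same-numbered tumours did not deviate together throughout (r from -0.501 to 0.397, median at most 0.137), so the main fits carry no block. Values of 3 counts or fewer were read as at the limit of detection.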

Additional observations from a re-analysis of the deposited data

Results flagged for a closer look

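Within groups of 8 tumours, 6 of 40 combinations of gene and group had 1 tumour set apart from the other 7 by a gap, relative to the group's range of log2 CPM, above Dixon's 95% critical value, which chance gives in about 1 of 20 groups. Nkd1 stood high in ΔEcad female 4 (8.73 log2 CPM, 14904 counts) and in Ecad male 8 (7.91, 7227 counts), and Tcf7 stood high in ΔEcad female 4 (7.64, 7003 counts). Axin2 stood low in Ecad female 1 (1.54, 191 counts), Apcdd1 stood low in Ecad male 7 (-1.31, 13 counts) and Znrf3 stood low in the library of ΔEcad male 1 (0.62, 30 counts).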

How the results depend on the processing

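Counts of the 10 genes called were as follows under the alternatives that moved them by more than 1.5 times. DESeq2 called 3 in the female genotype comparison (6.52% of all genes), 2 between sexes in Ecad tumours (5.00%) and 2 in the interaction (6.26%), against 0. Leaving out 1 tumour at a time gave 0 to 2 in the female comparison, 0 to 2 in the interaction and 1 to 2 on the Axin2 level. Without ΔEcad male 7, 1 was called on the fibroblast score and 3 on the melanocytic score. Without the group terms, 2 were called on the keratinocyte score (18% of all genes), 2 on the hair follicle score (17.9%), 1 on the melanocytic score (4.90%), 4 on the T cell score (15.8%) and 1 on the Cdh1 level (15.3%). Without the 2 farthest tumours, 0 were called on the Axin2 level, the hair follicle score and the T cell score, 3 on the melanocytic score and 1 on the Cdh1 level. With all 5 scores in 1 model, 0 were called on the hair follicle score and 4 on the T cell score, and with the keratinocyte score added, 0 on the Cdh1 level. Tcf7 was not among the 4 on the T cell score (slope -0.22, edgeR adjusted p = 0.291). Limma with voom called 2 on the hair follicle score and 2 on the Cdh1 level, and 0 of the pathway list in the female comparison and on the Axin2 level. On log2(TPM + 0.1), 17 pairs of genes correlated beyond 0.5 in size, against 10. Notum on the Cdh1 level lost its call in all 7 alternatives. Where no share of all genes stands beside a count here, that count is not read as a result about the 10 genes.

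The female differences that changed sign were all far from the threshold, apart from Rnf43 (adjusted p = 0.0967 in the main comparison), and the cause was not tested. With the keratinocyte and melanocytic scores, Rnf43 was at -0.0927 there, -0.24 in the interaction and 0.29 between sexes in Ecad tumours, and Tcf7 was at 0.0136, Lef1 at 0.46 and Znrf3 at 0.0566. With the hair follicle score Tcf7 was at 0.0346 and Znrf3 at 0.00736. Sp5 was at 0.53 with limma on either scale and 1.21 with DESeq2. Leaving out 1 tumour at a time, Axin2 ran from -0.23 (without ΔEcad female 4) to 0.62 (without Ecad female 4), Nkd1 from -2.13 to 1.25 (the same tumours), Sp5 from -2.93 (without ΔEcad female 4) to 3.49 (without Ecad female 5) and Znrf3 from -0.32 (without ΔEcad female 4) to 0.11 (without Ecad female 4).

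A replicate block by tumour number called 0 of the 10 genes in all 5 contrasts, changed the sign of Nkd1 to -0.0942 and Sp5 to 2.05 in females, and cut the genes called there from 213 to 1. Of 8 same-numbered pairs, at most 4 in any pair of groups had r over 0.1, and at most 1 tumour correlated best with its own number, so the numbers are not read as pairs. Over all genes, the female comparison called 213, between 1 (limma on either scale, or the 2 groups alone) and 1523 (DESeq2), 555 without the low-count filter, 11 with the keratinocyte and melanocytic scores and 2 with the hair follicle score. The interaction called 0, or 201 with other size factors, 284 without the filter and 1422 with DESeq2. Leaving out 1 tumour gave 1 to 695 in females and 0 to 848 in the interaction.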
